A study of Caenorhabditis elegans with 15 samples.

Results

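The histone genes of C. elegans are described here across 15 RNA-seq libraries of starved first-stage (L1) larvae. Members were every gene whose symbol is his- followed by a number. There are 72 such genes in the annotation, and his-58 was set aside because it is part of a reporter in the P37Stop strain, which left 71 of the 46911 genes in the count table. The study asked how the loss of cell fusion in the embryonic epidermis changes gene expression at the passage from embryo to larva, and used worms mutant for eff-1, which encodes the membrane protein that fuses epidermal cells. RNA came from whole larvae. Embryos from bleached adults were left in M9 buffer for 24 h, in which they hatched without food and arrested. There were 3 biological replicates a group from separate plates.

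The P37Stop group carried a CRISPR edit that places stop codons in exon 1 of eff-1, together with the junction reporter kuIs46 (ajm-1::GFP; unc-119(+)) and bqSi640, a dpy-7-driven construct of mCherry::his-58 and GFP::his-58. Its control, WT batch 2, was N2 run in the same experiment, and whether it carried either reporter is not given in the sources used here. The S441L (oj55) and P183L (hy21) groups carried point mutations from mutagenesis screens and the array jcIs1, which holds ajm-1::GFP with the rescue gene unc-29(+) and the marker rol-6(su1006). These strains may hold further mutations. Their control, WT batch 1, was N2 grown in parallel with them. Each mutant line is 1 strain, so the allele, its background and its transgenes cannot be told apart.

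Histones package DNA. An octamer of H2A, H2B, H3 and H4 forms the nucleosome core, and linker histone H1 binds the DNA between nucleosomes. In animals most core histone genes are replication-dependent: they are intronless, lie in clusters, are transcribed in S phase, and make mRNAs that end in a stem-loop in place of a poly(A) tail. Variant and replacement histones, such as the H3.3 proteins of his-71 and his-72 in the worm, are made outside S phase from solitary genes that usually have introns and polyadenylated mRNAs. Cell division is halted in L1 larvae that hatch without food.

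Of the 71 members, 60 were intronless and lay within 5 kb of a histone gene of another core type, and are called clustered below: 16 encode H2A, 14 H2B, 15 H3 and 15 H4. They lie on chromosomes I (2 genes), II (13), IV (21), V (22) and X (2). The other 11 members are his-24 (linker histone H1.1), his-71, his-72 and his-74 (H3.3 or H3.3-like), his-69 and his-70 (H3.3-like by name, though his-69 has the coding length of an H2A gene), his-35 (H2A), his-37 (H4), his-41 (H2B) and his-39 and his-73, whose short coding models were given no core type. Introns were present in 7 members, none of them clustered. The his-35, his-41 and his-37 genes are neighbours on chromosome V.

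The labels give the RNA as polyA RNA, and clustered genes took a small part of it. Counts per library totalled 35858225 to 47820216. Histone genes took 0.210 to 0.217% of counts in P37Stop, against 0.158 to 0.173% in WT batch 2, and 0.103 to 0.105% in S441L and 0.307 to 0.325% in P183L, against 0.136 to 0.137% in WT batch 1. Clustered genes made up 2.51 to 5.68% of those histone counts. How much cluster mRNA escaped the poly(A) selection was not tested. The targeted gene, eff-1, had 16.7 to 19.9 CPM (counts scaled to a common library size) in P37Stop, against 23.9 to 28.5 CPM in WT batch 2, and 30.8 to 34.3 CPM in S441L and 30.5 to 34.5 CPM in P183L, against 26.2 to 30.5 CPM in WT batch 1. CPM here are scaled by TMM over all libraries and compare 1 gene, or 1 sum of genes, between libraries.

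Genes were compared with each other in TPM, which divide counts by exon length before scaling to a common total. The highest mean TPM over the 15 libraries belonged to his-24 at 978, followed by his-72 at 817, his-37 at 611, his-71 at 545, his-35 at 456 and his-41 at 433. All of these have introns. The most abundant clustered gene, his-9 (H3), averaged 33.4 TPM, followed by his-60 (H4) at 28.4, and the intron-containing his-74 averaged 21.7. At the other end, his-13, his-15, his-44 and his-49 had 0 counts in every library.

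Copies of near-identical sequence limit what a single clustered row can show. The annotation gives 35 members a symbol they share with another histone gene, and 50 members had a count that was not whole in at least 1 library, as happens when reads are split among copies. The H4 genes his-10, his-14 and his-26 are an example: in each of the 15 libraries 1 of them held every count and the other two were at 0. In P183L his-14 had 43, 43 and 0 counts and his-26 had 0, 0 and 33, while in WT batch 1 his-14 had 210, 129 and 0 and his-10 had 0, 0 and 238. Sums over copies that share a symbol do not depend on the split among those copies, and are therefore given beside single rows. They can still depend on a split with genes of another symbol. The his-42 and his-48 genes share their symbol with no other gene, yet had counts that were not whole in all 15 libraries.

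A gene was called when edgeR's quasi-likelihood test gave a Benjamini-Hochberg adjusted p below 0.05, over all genes tested, and the fold change passed 0.5 on the log2 scale in either direction. In P37Stop against WT batch 2, 43 members passed the filter on low counts, 12 were called higher and 0 lower, where 12.7% of all genes tested were called higher and 5.9% lower, 18.6% in all. At an unadjusted p below 0.05 there were 15 higher and 0 lower, and DESeq2 called 1 lower. In S441L against WT batch 1, 36 were tested, 1 was called higher and 22 lower, where 24.2% of all genes were called higher and 15.8% lower, 40% in all. In P183L against WT batch 1, 47 were tested, 31 were called higher and 8 lower, where 40.2% of all genes were called in each direction, 80.4% in all. The share of members called higher thus lay above the background in P37Stop and P183L, the share called lower lay above it in S441L, and the share called lower in P183L lay below it.

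The clustered genes and the others are shown apart in the plot of fold changes by core type. In P37Stop 10 of 35 clustered genes tested were called higher, with a median log2 fold change of 1.07, against 2 of 8 of the others, with a median of 0.13. In S441L 17 of 28 clustered genes were called lower, with a median of -1.03, and 5 of 8 of the others were called lower and 1 higher, with a median of -0.58. In P183L 28 of 38 clustered genes were called higher and 4 lower, with a median of 1.53, and of the 9 others 3 were called higher and 4 lower, with a median of -0.30. Over all genes tested the median lay between 0.02 and 0.03 in these comparisons. Of all genes tested, 12.7% were called higher in P37Stop and 40.2% each way in P183L. In S441L 15.8% were called lower and 24.2% higher. The P183L counts of genes outside the clusters thus lie near the shares over all genes. S441L and P183L share the WT batch 1 libraries.

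**Figure D1:**
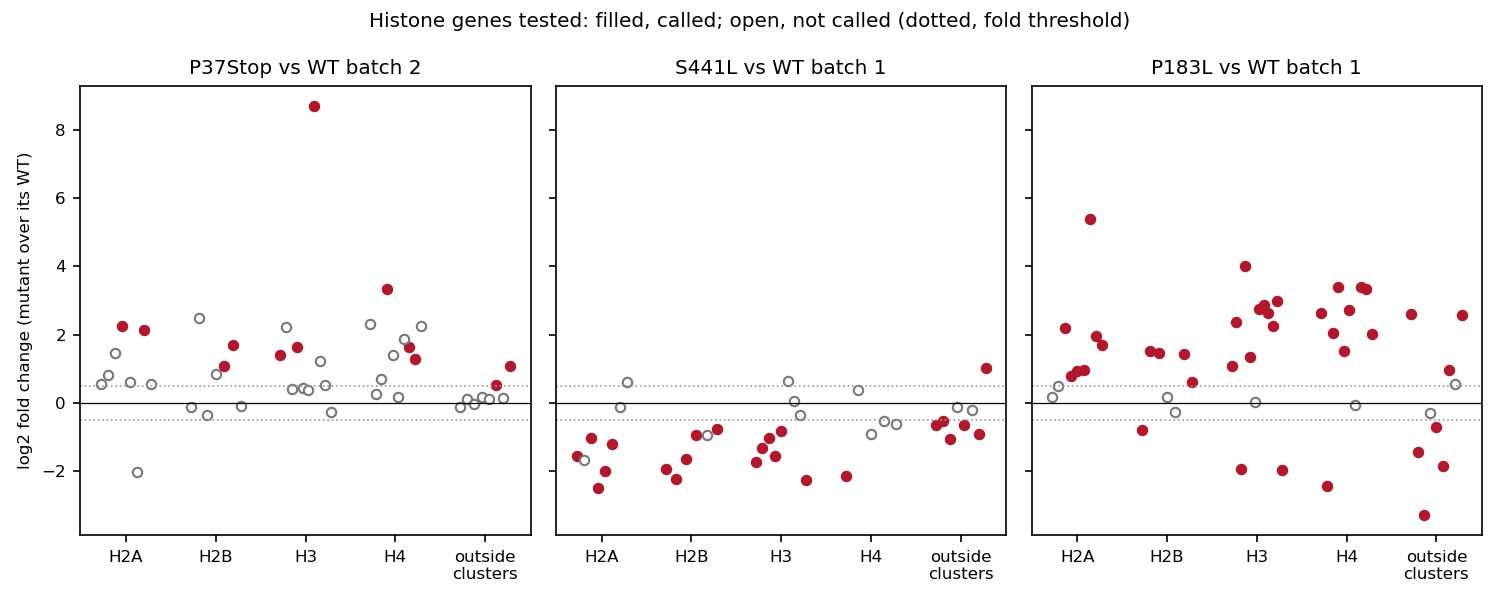
Log2 fold change of each histone gene tested (y axis), mutant over its own WT, for clustered genes by core type and for genes outside the clusters (x axis). Filled points were called and open points were not; clustered genes sit mostly above 0 in P37Stop and P183L and mostly below 0 in S441L, and the his-55 point at 8.68 in P37Stop is a fit against 3 WT libraries with 0 counts.

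The genes outside the clusters held most of the histone counts. The linker histone gene his-24 (WBGene00001898; WBcel235, the assembly also called ce11, chrX:14490094-14491119, plus strand) had 275, 318 and 311 CPM in P37Stop, against 331, 348 and 326 CPM in WT batch 2. It had 167, 165 and 158 CPM in S441L and 1568, 1622 and 1753 CPM in P183L, against 249, 284 and 258 CPM in WT batch 1. The P183L libraries stood far above those of WT batch 1, and the S441L libraries lay below them. The log2 fold change of his-24 was 2.60 ± 0.06 (SE) in P183L (edgeR adjusted p = 3.31e-13) and -0.65 ± 0.05 in S441L (edgeR adjusted p = 1.18e-07), both called. In P37Stop it was -0.13 ± 0.09 (edgeR adjusted p = 0.329), not called.

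The H3.3 genes moved apart. The his-72 gene (WBGene00001946; chrIII:12367475-12369050, minus strand, with a snoRNA gene inside its bounds) had 450, 425 and 417 CPM in P37Stop, against 338, 279 and 301 CPM in WT batch 2. It had 234, 238 and 229 CPM in S441L and 550, 558 and 554 CPM in P183L, against 278, 273 and 276 CPM in WT batch 1. The his-72 libraries of P37Stop and of P183L all lay above their WT libraries, with log2 fold changes of 0.52 ± 0.09 (edgeR adjusted p = 0.00208) and 0.96 ± 0.04 (edgeR adjusted p = 4.59e-11). The P37Stop value of his-72 sits close to the fold threshold: leaving out 1 library at a time moved it between 0.46 and 0.59, and it was called in 4 of those 6 fits. In S441L his-72 had a log2 fold change of -0.20, under the fold threshold.

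Its partner his-71 (WBGene00001945; chrX:7981382-7982070, minus strand) had 350, 304 and 282 CPM in P37Stop, against 312, 286 and 288 CPM in WT batch 2, and these groups overlapped. It had 213, 224 and 218 CPM in S441L and 107, 102 and 94.1 CPM in P183L, against 340, 350 and 360 CPM in WT batch 1. The his-71 level fell in both, by 0.64 on the log2 scale in S441L (SE 0.04, edgeR adjusted p = 1.83e-08) and by 1.84 in P183L (SE 0.05, edgeR adjusted p = 1.93e-12). In P37Stop the log2 fold change of his-71 was 0.11 ± 0.10 (edgeR adjusted p = 0.463), not called.

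The ratio of his-72 to his-71 TPM differed between groups without overlap within either experiment. It was 1.19, 1.29 and 1.37 in P37Stop, against 1.00, 0.904 and 0.966 in WT batch 2. It was 1.02, 0.984 and 0.972 in S441L and 4.76, 5.07 and 5.45 in P183L, against 0.757, 0.724 and 0.710 in WT batch 1. The ratio was thus above WT in all 3 mutants, and in every P37Stop and P183L library his-72 was the more abundant H3.3 transcript. The WT groups also differed, with every WT batch 2 library above every WT batch 1 library. With 3 libraries against 3, an exact permutation test cannot reach 0.05, so these ratios are given as a description.

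**Figure D2:**
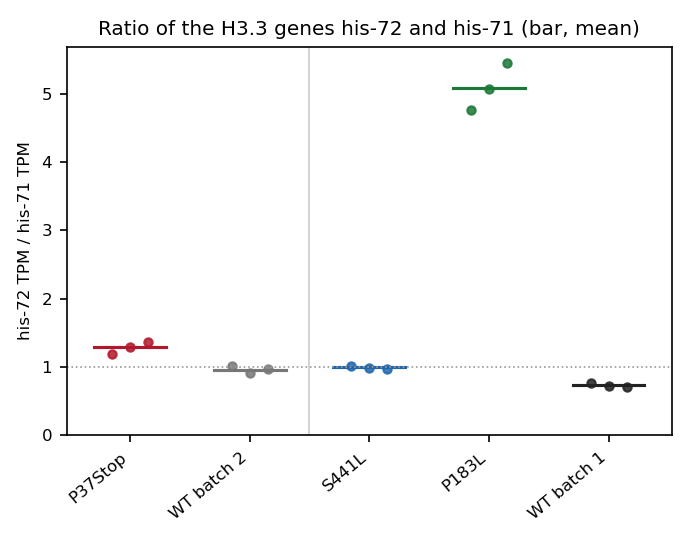
Ratio of his-72 to his-71 TPM (y axis) in each library by group (x axis); points are libraries, bars are means of 3, and the dotted line marks a ratio of 1. The 3 P183L libraries lie between 4.76 and 5.45, and the P37Stop and S441L libraries lie above their own WT libraries.

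A scarcer H3.3-like gene, his-74 (WBGene00012276; chrV:12659704-12660330, minus strand), was the member of this group called higher in all 3 mutants. It had 9.15, 17.6 and 9.20 CPM in P37Stop, against 9.12, 4.98 and 3.16 CPM in WT batch 2, and 4.57, 5.01 and 5.65 CPM in S441L and 16.3, 17.0 and 14.8 CPM in P183L, against 2.94, 1.77 and 2.99 CPM in WT batch 1. The lowest P37Stop value and the highest WT batch 2 value nearly touch. The log2 fold change of his-74 was 1.09 ± 0.36 in P37Stop (edgeR adjusted p = 0.0452), 1.01 ± 0.19 in S441L (edgeR adjusted p = 0.000422) and 2.57 ± 0.15 in P183L (edgeR adjusted p = 4.76e-09). Leaving out 1 library at a time, his-74 was called in 3 of 6 fits in P37Stop, with adjusted p up to 0.196, and in all 6 in S441L and in P183L. The WT groups differed by 1.25 on the log2 scale for his-74 (WT batch 2 over WT batch 1, edgeR adjusted p = 0.00921), as much as the P37Stop difference.

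The intron-containing H2A, H2B and H4 genes his-35, his-41 and his-37 lie side by side on chromosome V (his-35 at chrV:9544659-9545288, minus strand; his-41 at chrV:9545536-9546264 and his-37 at chrV:9547105-9547607, plus strand), and all 3 fell in P183L. The his-37 gene had 32.8, 32.9 and 32.6 CPM in P183L and 147, 145 and 135 CPM in S441L, against 295, 336 and 284 CPM in WT batch 1. It fell by 3.27 on the log2 scale in P183L (SE 0.06, edgeR adjusted p = 4.75e-14), the largest drop among the members tested there, and by 1.05 in S441L (SE 0.06, edgeR adjusted p = 4.90e-09). The his-10 and his-54 rows, which did not pass the filter, were at 0 in every P183L library and, against a floor of 3 counts a library, at least 30.9-fold and 21.7-fold lower than in WT batch 1, where each had counts in 1 library. Summed with their copies, these rows had log2 fold changes of -2.67 and -0.70 in P183L. In P37Stop his-37 had 295, 292 and 294 CPM, against 283, 338 and 287 CPM in WT batch 2, and the log2 difference was -0.02.

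The his-35 gene had 62.9, 61.0 and 58.7 CPM in P183L and 108, 111 and 106 CPM in S441L, against 154, 163 and 165 CPM in WT batch 1. It fell by 1.45 in P183L and by 0.52 in S441L on the log2 scale (edgeR adjusted p = 4.41e-12 and 2.06e-07). The his-41 gene had 85.05, 77.8 and 77.7 CPM in P183L and 114, 113 and 112 CPM in S441L, against 132, 121 and 124 CPM in WT batch 1. It fell by 0.70 in P183L (edgeR adjusted p = 3.28e-08), while its log2 fold change of -0.11 in S441L was under the fold threshold. In P37Stop his-35 had 325, 297 and 265 CPM, against 287, 271 and 276 CPM in WT batch 2, and his-41 had 291, 289 and 293 CPM, against 252, 282 and 247 CPM; neither was called (edgeR adjusted p = 0.401 for his-35 and 0.138 for his-41). When libraries were scaled by total counts, the S441L changes of his-24, his-71 and his-35 shrank to -0.46, -0.45 and -0.33 on the log2 scale and that of his-41 in P183L to -0.20, all under the fold threshold. Another gene overlaps his-37 (nstp-10, opposite strand) and his-41 (C50F4.6, same strand), and whether the counting used strand is not given in the sources used here.

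The WT groups differed for his-35 and his-41 more than P37Stop differed from its WT. The his-35 gene was 0.89 higher and his-41 1.15 higher on the log2 scale in WT batch 2 than in WT batch 1 (edgeR adjusted p = 1.95e-07 and 1.24e-07). In that comparison 7 of 39 members tested were called higher and 2 lower, where 18.6% of all genes were called higher and 14.3% lower, 32.9% in all. Each mutant was tested against the WT of its own experiment.

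**Figure D3:**
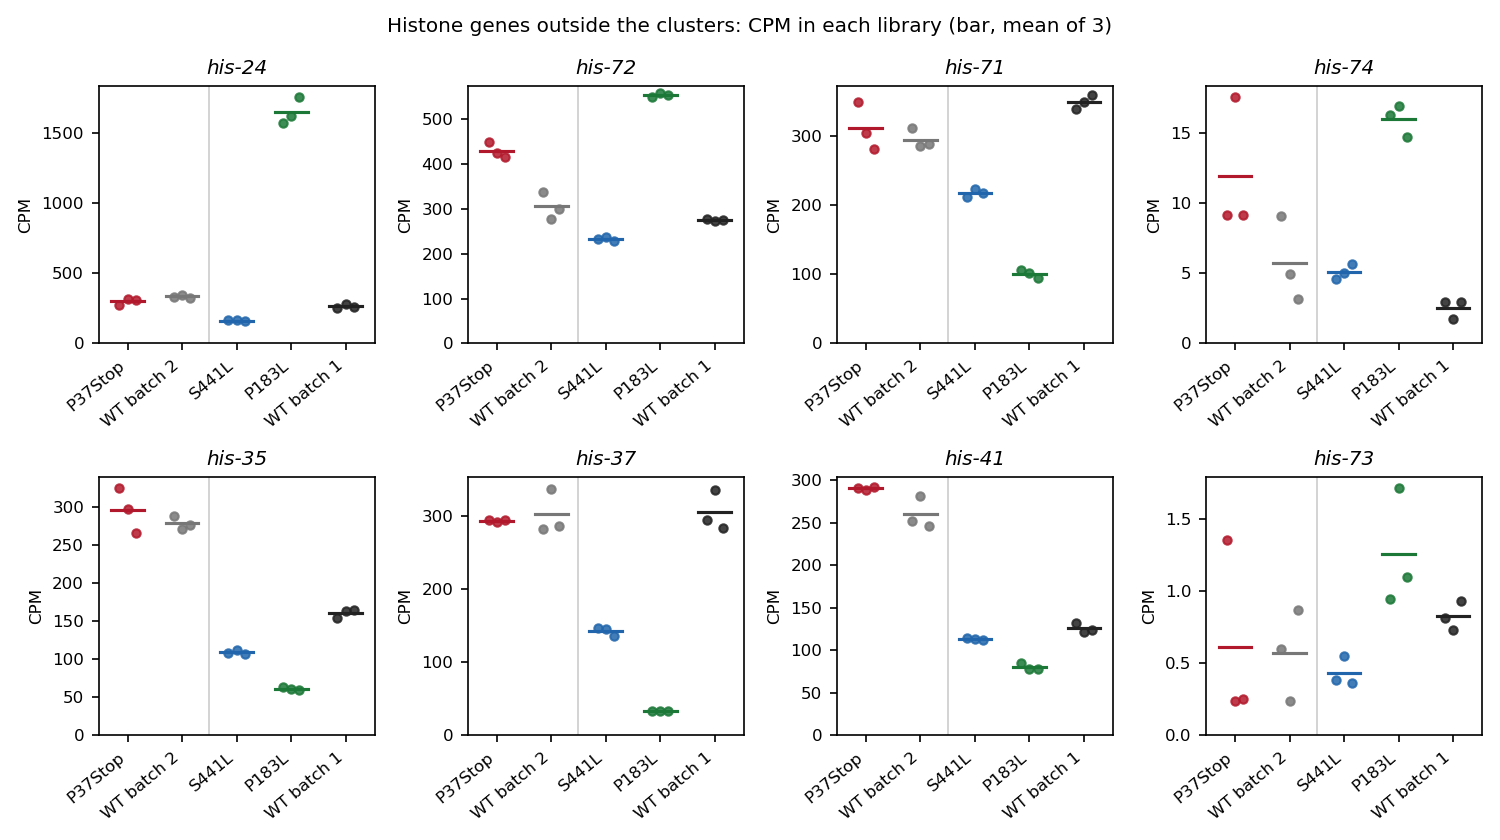
TMM-scaled CPM (y axis, from 0) of the 8 genes outside the clusters that passed the filter in all 3 mutants, in each library by group (x axis); points are libraries, bars are means of 3, and the vertical line parts the experiments. P183L stands above WT batch 1 for his-24, his-72 and his-74 and below it for his-71, his-35, his-37 and his-41.

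The remaining genes outside the clusters were near the limit of detection. The his-73 gene had 58, 11 and 10 counts in P37Stop, against 24, 10 and 31 in WT batch 2, and fell by 0.90 on the log2 scale in S441L (edgeR adjusted p = 0.0250, called in 3 of 6 fits that left out 1 library), with 18, 25.2 and 16 counts, against 31.04, 22.3 and 36.8 in WT batch 1. It overlaps W09H1.4 on the same strand. The his-39 gene had 0 counts in all P37Stop and WT batch 2 libraries, which allows up to 3 counts in each, and 13.1 to 23.8 counts in P183L, against 4.21 to 26.6 in WT batch 1. Both his-69 and his-70 were low, with at most 13 and 9 counts in any library, and were not tested.

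Summed over all 60 genes, the clustered level was higher in P37Stop and P183L and lower in S441L. It was 97.1, 117 and 91.5 CPM in P37Stop, against 69.4, 71.5 and 58.1 CPM in WT batch 2. It was 29.2, 27.6 and 24.8 CPM in S441L and 131, 130 and 130 CPM in P183L, against 69.4, 74.4 and 69.8 CPM in WT batch 1. The log2 ratio of the mean sums was 0.62 in P37Stop, -1.39 in S441L and 0.87 in P183L. Groups did not overlap within either experiment. Without his-66, taken up below, the P37Stop sum was 93.1, 90.6 and 77.7 CPM. The WT batch 2 sum was then 64.7, 68.0 and 52.3 CPM, still with no overlap. In TPM, which weigh each gene by its length and carry no TMM scaling, the same log2 ratios were 0.88, -1.08 and 1.75, and the P183L sum was 697 to 698 TPM, against 205 to 209 TPM in WT batch 1. The size of the P183L rise thus depended on the scale. In bulk RNA, fewer cells of a type and less RNA per cell cannot be told apart, here and in the results that follow.

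Summing by core type separated the mutants further. Rows of summed counts were put through the same test in place of the single clustered rows. In S441L all 4 sums fell, with log2 fold changes of -1.02 ± 0.12 for H2A, -1.28 ± 0.08 for H2B, -1.66 ± 0.10 for H3 and -0.97 ± 0.13 for H4 (edgeR adjusted p from 6.31e-09 to 3.17e-05). In P183L the H2A sum rose by 1.53 ± 0.07 and the H4 sum by 1.90 ± 0.06 (edgeR adjusted p = 4.87e-10 and 6.43e-12). The P183L sums of H2B (0.35 ± 0.07) and H3 (0.19 ± 0.05) were under the fold threshold, so the 4 core types did not move by one amount.

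In P37Stop the H2A sum rose by 0.86 ± 0.15 and the H4 sum by 0.91 ± 0.17 on the log2 scale (edgeR adjusted p = 0.00194 and 0.00258). The H2A sum was 23.2, 21.6 and 19.995 CPM in P37Stop, against 13.8, 12.8 and 9.72 CPM in WT batch 2, and the H4 sum was 16.1, 16.03 and 15.2 CPM, against 9.04, 9.91 and 6.73 CPM. Neither pair of groups overlapped. The H3 sum had a log2 fold change of 0.25 ± 0.15 (edgeR adjusted p = 0.265), with 30.5, 29.1 and 22.4 CPM in P37Stop, against 26.2, 25.2 and 19.0 CPM in WT batch 2, which overlap.

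The H2B sum in P37Stop rested on his-66. With all 14 H2B genes it rose by 0.77 ± 0.19 (edgeR adjusted p = 0.0119), and without his-66 it had a log2 fold change of 0.38 ± 0.14 (edgeR adjusted p = 0.0622), no longer called. The his-66 gene (WBGene00001940; chrIV:11400415-11400786, minus strand), which the annotation names like the reporter gene his-58, had 3.99, 26.4 and 13.8 CPM in P37Stop, against 4.68, 3.42 and 5.83 CPM in WT batch 2. These overlap, and its call there (log2 fold change 1.69 ± 0.50, edgeR adjusted p = 0.0288) held in 2 of 6 fits that left out 1 library. The reporter gene his-58 and his-66 together had 34.9, 33.3 and 23.7 CPM in P37Stop, against 9.82, 9.34 and 7.01 CPM in WT batch 2. The WT groups differed as well, with 2.66, 2.79 and 2.30 CPM for this pair in WT batch 1. The P37Stop strain carries his-58 in its reporter construct, and the reporter's part in the his-66 level was not tested.

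**Figure D4:**
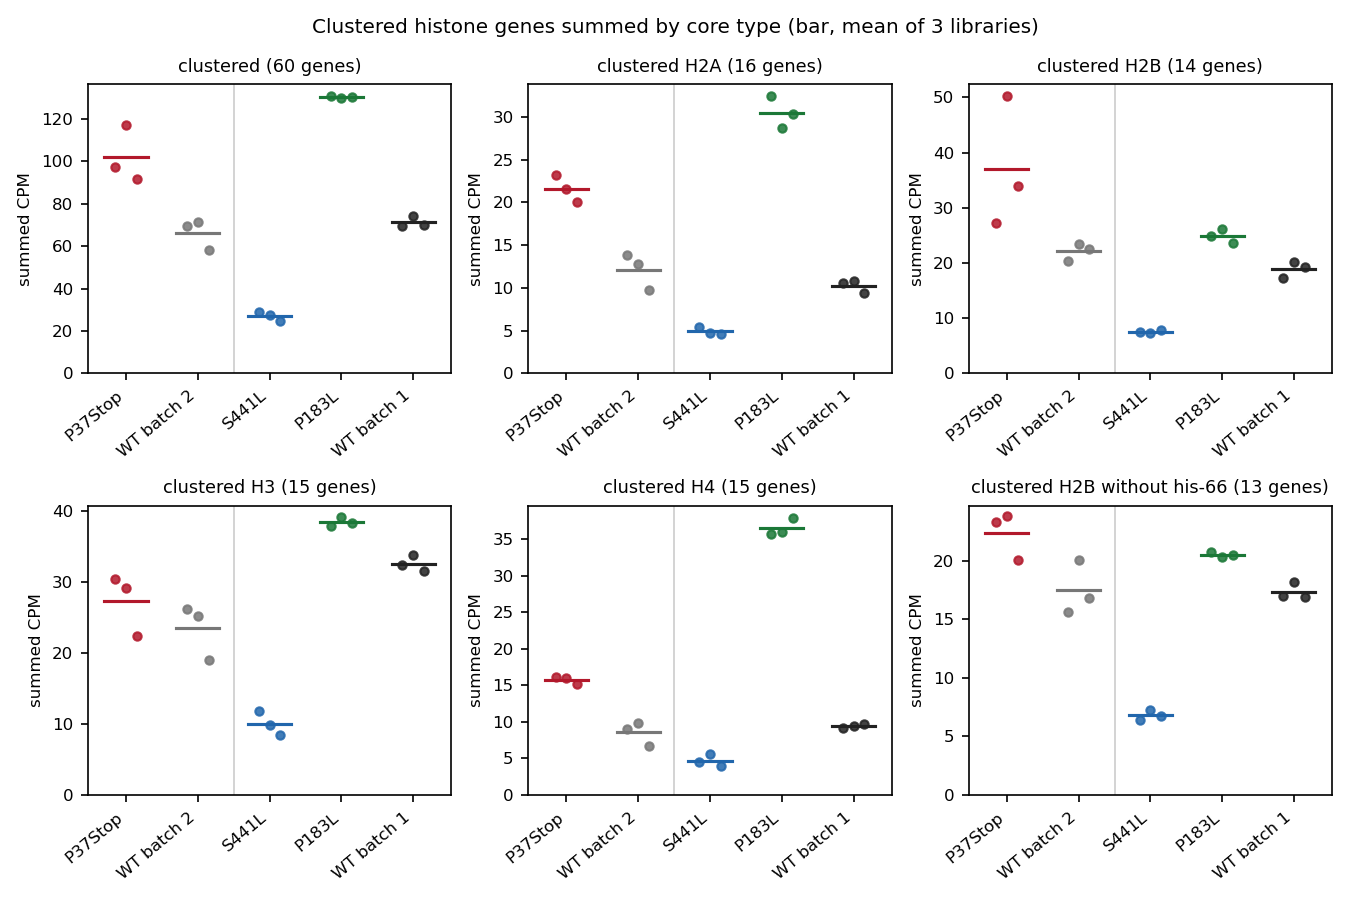
Summed TMM-scaled CPM (y axis, from 0) of clustered histone genes, for all 60, for each core type and for H2B without his-66, in each library by group (x axis); points are libraries and bars are means of 3. Within their experiment S441L is lowest in every panel and P183L is above WT batch 1 for H2A and H4, and the P37Stop excess over WT batch 2 in H2B shrinks once his-66 is left out.

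Clustered genes were parted into 9 groups wherever the gap between neighbours exceeded 100 kb. The 13 genes on chromosome II (chrII:13817760-13828697), which include his-9, his-11, his-14, his-16 and his-25, summed to 16.01, 15.4 and 16.3 CPM in P183L and 13.1, 12.2 and 9.43 CPM in S441L, against 40.5, 43.4 and 40.5 CPM in WT batch 1. In P183L 4 of 6 tested there were called lower, where 40.2% of all genes tested were called in each direction. These were the 4 clustered genes called lower in that mutant. In 6 of the other 8 groups every gene tested was called higher.

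The widest contrast to chromosome II was the group of 6 genes at chrIV:8331044-8336340, which includes his-31 and his-32. It summed to 18.0, 20.6 and 20.3 CPM in P183L and 0.702, 0.477 and 0.832 CPM in S441L, against 1.31, 1.18 and 1.82 CPM in WT batch 1. The 11 genes at chrIV:11324056-11407427 had 30.5 to 32.0 CPM in P183L, against 5.17 to 7.97 CPM in WT batch 1. Of these, 9 of 9 tested were called higher, where 40.2% of all genes tested were. In S441L, by contrast, the mean of all 9 groups lay below WT batch 1. All 5 genes tested on chromosome II were called lower there, where 15.8% of all genes tested were. The groups were set out after the fold changes had been seen, so they are given with no test between them.

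In P37Stop the chromosome II group did not stand apart from its WT, with 45.3, 35.5 and 25.3 CPM against 37.7, 41.7 and 29.5 CPM in WT batch 2, which overlap. The group of 4 genes at chrIV:7485834-7488659, which includes his-60 and his-62, had 9.33 to 11.4 CPM in P37Stop, against 4.89 to 5.38 CPM in WT batch 2. The pair on chromosome I had 3.81 to 7.43 CPM in P37Stop, against 0.307 to 2.22 CPM in WT batch 2. The clustered genes called in P37Stop were spread over chromosomes I, IV and V.

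**Figure D5:**
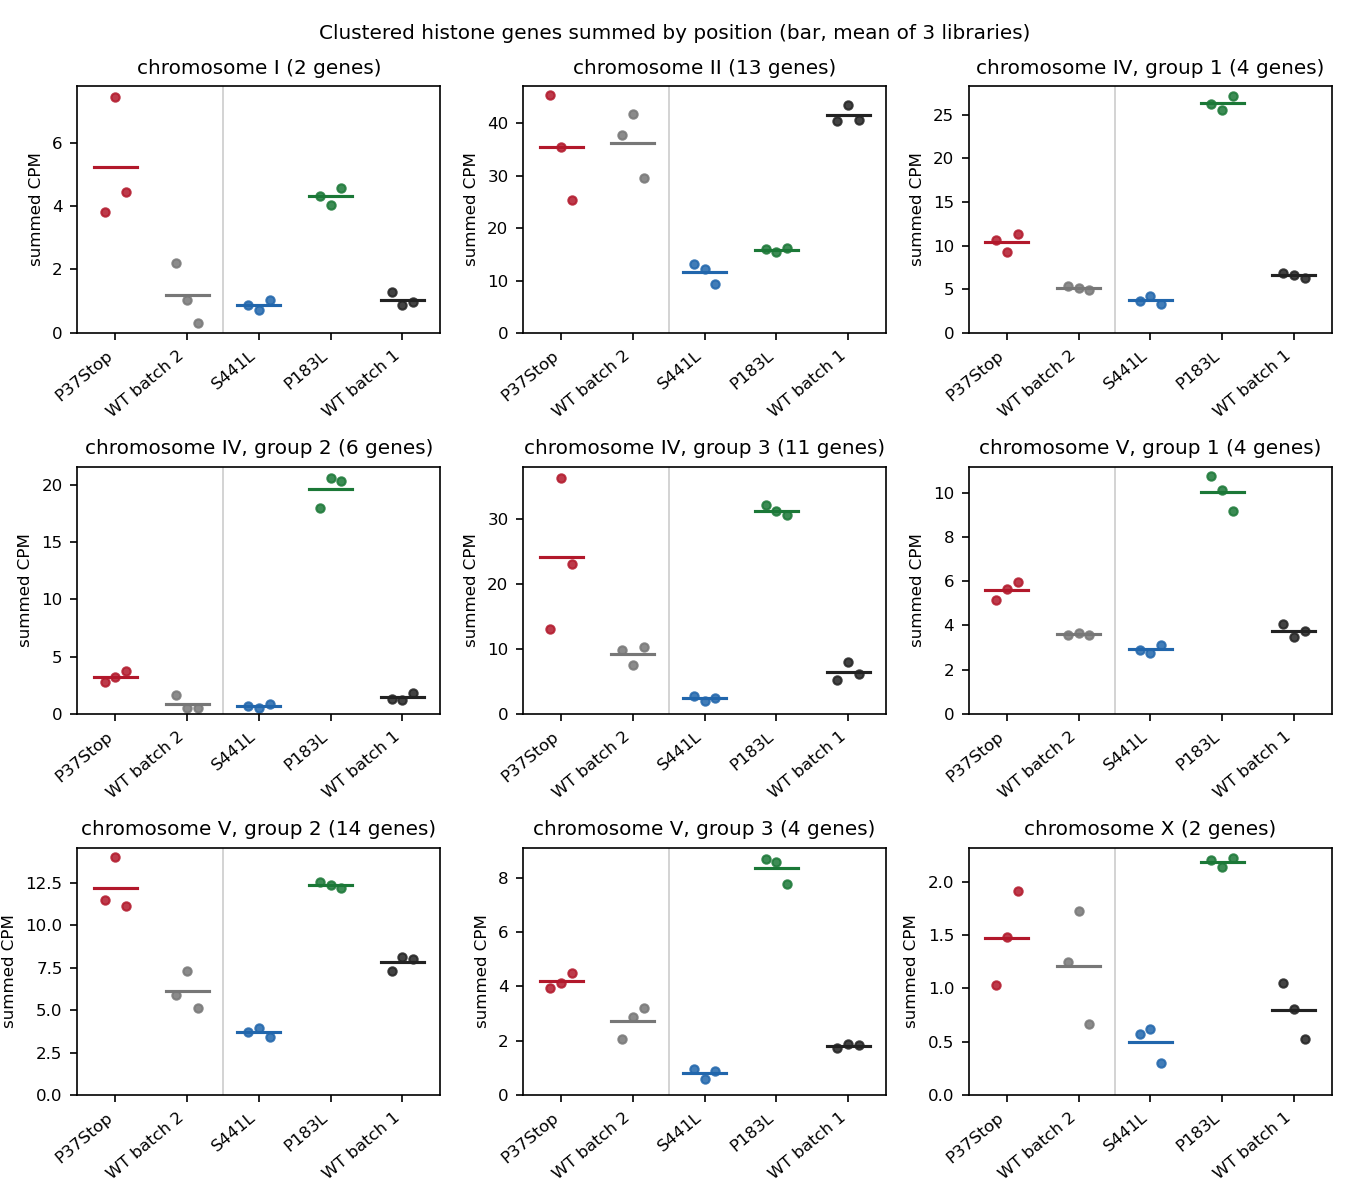
Summed TMM-scaled CPM (y axis, from 0) of clustered histone genes in 9 groups by position, in each library by group (x axis); points are libraries and bars are means of 3, and the groups on 1 chromosome are numbered from left to right. The 13 genes on chromosome II are the panel in which P183L lies below WT batch 1.

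Among single clustered genes, his-9 (WBGene00001883; H3, chrII:13823648-13824058, plus strand) was called lower in both S441L and P183L. It had 4.74, 2.82 and 3.79 CPM in S441L and 6.01, 4.504 and 4.54 CPM in P183L, against 16.8, 22.6 and 17.1 CPM in WT batch 1. It fell by 2.27 on the log2 scale in S441L (SE 0.17, edgeR adjusted p = 7.65e-08) and by 1.95 in P183L (SE 0.14, edgeR adjusted p = 2.97e-08). Summed with its copies his-13 and his-25 it fell by 1.91 in S441L and by 1.94 in P183L. In P37Stop his-9 had 15.6, 12.2 and 9.75 CPM, against 19.3, 13.7 and 12.9 CPM in WT batch 2, and the log2 difference was -0.26 (edgeR adjusted p = 0.385).

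The his-60 gene (WBGene00001934; H4, chrIV:7487681-7487992, minus strand) shares its symbol with no other gene and had whole counts throughout. It had 17.7, 17.2 and 18.6 CPM in P183L and 1.28, 1.21 and 0.855 CPM in S441L, against 1.84, 2.03 and 1.14 CPM in WT batch 1, and 3.02, 3.53 and 3.57 CPM in P37Stop, against 2.14, 1.15 and 0.950 CPM in WT batch 2. It rose by 3.39 ± 0.15 on the log2 scale in P183L (edgeR adjusted p = 2.29e-10) and by 1.28 ± 0.36 in P37Stop (edgeR adjusted p = 0.0239). The S441L value of his-60, -0.53 ± 0.26, was not called (edgeR adjusted p = 0.0917). Leaving out 1 library at a time, his-60 stayed called in 2 of 6 fits in P37Stop and in all 6 in P183L.

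The neighbours of his-60 moved by different amounts in P183L. On the log2 scale his-59 (H3) rose by 2.62 and his-61 (H2A) by 0.98, while his-62 (H2B) had a value of -0.27 and was not called (edgeR adjusted p = 0.136). The his-62 gene had 2.76, 2.54 and 2.54 CPM in P183L and 1.34, 1.69 and 1.57 CPM in S441L, against 2.99, 2.69 and 3.42 CPM in WT batch 1. It fell by 0.94 in S441L and rose by 1.07 in P37Stop (edgeR adjusted p = 0.00041 and 0.0254), where it had 5.03, 3.10 and 4.19 CPM, against 1.62, 2.42 and 1.93 CPM in WT batch 2.

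The his-32 gene (WBGene00001906; H3, chrIV:8334305-8334715, plus strand) was called in each mutant, lower in S441L and higher in the others. It had 13.8, 14.9 and 14.9 CPM in P183L and 0.447, 0.304 and 0.472 CPM in S441L, against 0.656, 0.590 and 1.32 CPM in WT batch 1. In P37Stop his-32 had 2.20, 1.63 and 2.33 CPM, against 1.17, 0.359 and 0.503 CPM in WT batch 2. The log2 fold changes of his-32 were 4.004 ± 0.20 in P183L, -1.04 ± 0.39 in S441L and 1.63 ± 0.50 in P37Stop (edgeR adjusted p = 7.66e-10, 0.0313 and 0.0341). Leaving out 1 library at a time, his-32 stayed called in 1 of 6 fits in P37Stop, 2 of 6 in S441L and 6 of 6 in P183L.

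The H2A gene his-16 (WBGene00001890; chrII:13817760-13818143, minus strand) had 1.21, 0.802 and 0.517 CPM in S441L and 3.38, 2.60 and 3.12 CPM in P183L, against 2.10, 2.85 and 2.84 CPM in WT batch 1. It fell by 1.57 on the log2 scale in S441L (SE 0.27, edgeR adjusted p = 0.000229). It was not called in P183L (0.18 ± 0.18) or in P37Stop (0.56 ± 0.39), where it had 7.60, 4.12 and 4.02 CPM, against 4.66, 4.603 and 1.66 CPM in WT batch 2. The H2B gene his-4 (WBGene00001878; chrV:16040144-16040515, minus strand) had 5.39, 4.86 and 1.14 counts in S441L and 61.6, 54.9 and 49.4 counts in P183L, against 17.6, 11.5 and 14.3 counts in WT batch 1. It fell by 2.23 in S441L (edgeR adjusted p = 0.00440) and rose by 1.53 in P183L (edgeR adjusted p = 0.000163).

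The largest single-row changes among genes tested in P37Stop came from genes with copies. The his-55 gene (WBGene00001929; H3, chrIV:11337853-11338263, minus strand) had 72, 38.3 and 48 counts in P37Stop, against 0 in each WT batch 2 library. Set against a floor of 3 counts in each WT library, it was at least 16.1-fold higher (edgeR adjusted p = 0.00097). Its copy his-45 ran the other way, with 0 counts in each P37Stop library, against 25, 20 and 7 in WT batch 2, and the sum of his-45 and his-55 was not called (log2 fold change 1.53 ± 0.60, edgeR adjusted p = 0.0834).

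The sums that hold his-28 and his-57 kept their call. The his-28 gene (WBGene00001902; H4, chrV:8889488-8889799, minus strand) rose by 3.33 ± 0.83 in P37Stop, with 59.1, 66.5 and 84.3 counts, against 0.5, 11.1 and 7.57 counts in WT batch 2. Its sum with his-50 rose by 2.66 ± 0.76 (edgeR adjusted p = 0.0248). The his-57 gene (WBGene00001931; H2A, chrIV:11340390-11341703, plus strand, overlapping klp-12 on the other strand) rose by 2.26 ± 0.57, with 86.5, 78.3 and 61.8 counts in P37Stop, against 27.0, 8.30 and 8.65 counts in WT batch 2. Its sum with his-47 and his-65 rose by 1.04 ± 0.34 (edgeR adjusted p = 0.0424).

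Among genes tested, that H2A trio also held the largest single-row rise in P183L and the largest single-row fall in S441L. Rows that did not pass the filter stood further apart, but these have copies that share their symbol. The his-56 (H4) row averaged 4.12 CPM in P183L (0 to 6.22 CPM), against 0.0725 CPM in WT batch 1. The his-14, his-54 and his-20 rows were at 0 in every S441L library, at least 49.6-fold, 21.5-fold and 17.0-fold lower than in WT batch 1. There his-54 and his-20 had counts in 1 library each. Summed with copies, the S441L log2 fold changes were smaller. They were -1.61 (SE 0.21) for his-10, his-14 and his-26, and -1.14 (SE 0.16) for his-20, his-22, his-52 and his-54. The his-65 gene (WBGene00001939; chrIV:11401092-11401475, plus strand) had 312, 202 and 236 counts in P183L, against 4.98, 7.82 and 0 counts in WT batch 1, and rose by 5.39 ± 0.43 on the log2 scale. The his-47 gene (WBGene00001921; chrIV:11324056-11324439, minus strand) had 2.91, 11.3 and 11.7 counts in S441L, against 30.9, 50.4 and 36.8 counts in WT batch 1, and its log2 difference was -2.50 ± 0.47. The sum of his-47, his-57 and his-65 was 9.45, 8.58 and 9.66 CPM in P183L and 0.319, 0.629 and 0.360 CPM in S441L, against 2.39, 2.46 and 1.70 CPM in WT batch 1. It rose by 2.04 ± 0.15 in P183L (edgeR adjusted p = 3.19e-08) and fell by 2.27 in S441L (SE 0.29, edgeR adjusted p = 1.49e-05).

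The H4 gene his-14 (WBGene00001888; chrII:13819626-13819937, minus strand), called lower in P183L as a single row at -2.43 ± 1.01 (edgeR adjusted p = 0.0377), kept that call in 1 of 6 fits that left out 1 library and lost it in DESeq2 (adjusted p = 0.431). Its sum with his-10 and his-26 was firmer: 0.891, 0.949 and 0.730 CPM in P183L, against 5.51, 4.22 and 6.02 CPM in WT batch 1, a fall of 2.67 on the log2 scale (SE 0.20, edgeR adjusted p = 4.13e-08). The H2B sum of his-20, his-22, his-52 and his-54 on chromosome V also fell in P183L, by 0.70 (edgeR adjusted p = 0.00148). This sum is the exception among the groups off chromosome II, where no single row of these copies was called lower.

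When copies that share a symbol were summed, the 71 members became 50 units. In P37Stop 12 of 42 tested units were called higher, in S441L 1 of 36 higher and 23 lower, and in P183L 32 of 46 higher and 8 lower. In the fits of single rows, 12.7% of all genes were called higher in P37Stop. The shares were 24.2% higher and 15.8% lower in S441L, and 40.2% each way in P183L. The counts were therefore close to those of single rows, although the rows behind them differ. The number called in P37Stop did depend on single libraries: it was 4 without WT batch 2 replicate 2, 7 without WT batch 2 replicate 3 and 6 without P37Stop replicate 2.

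P183L and S441L were also compared with each other directly, since they were grown in parallel. There 37 of 46 members tested were called higher in P183L and 4 lower, where 38.1% of all genes were called higher and 40.4% lower, 78.5% in all. Among clustered genes 32 of 37 were called higher. The sums rose by 2.63 for H2A, 1.72 for H2B, 1.94 for H3 and 2.96 for H4 on the log2 scale. The genes called lower were his-37, his-71, his-35 and his-41, of which his-41 lay close to the fold threshold and was not called by DESeq2, by total-count scaling, without a filter or with core-type sums.

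Whether the effect of 1 allele over its WT differed from that of another was tested in a fit of all 15 libraries for 7 genes. Over all 17180 genes of that fit, 30.7% differed between P37Stop and S441L, 65% between P37Stop and P183L and 72.2% between P183L and S441L (adjusted p below 0.05 and a difference over 0.5 on the log2 scale). Of the 7 genes 7, 5 and 6 differed, so the last 2 counts lie near the share over all genes. The effects on his-24 differed by 3.34 ± 0.07 between P183L and S441L and those on his-71 by -1.11 ± 0.07 (edgeR adjusted p = 3.21e-16 and 3.43e-10). The P37Stop and P183L effects on his-60 differed by -2.18 ± 0.38 and those on his-9 by 1.61 ± 0.31 (edgeR adjusted p = 7.02e-05 and 0.000171). For his-9 the P183L and S441L effects were not shown to differ, at 0.41 with a 95% interval from -0.07 to 0.89 (edgeR adjusted p = 0.108). In the fit of those 2 groups alone the P183L level of his-9 over that of S441L was 0.39 ± 0.18 (edgeR adjusted p = 0.0486), under the fold threshold. The P37Stop and P183L effects were likewise not shown to differ for his-16, at 0.30 (-0.80 to 1.40), or for his-66, at 0.18 (-1.73 to 2.10), where the intervals are wide.

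Histones outside the his- names were read from a list of 11 genes: the linker histone genes hil-1 to hil-8, htz-1 (H2A.Z), and the centromeric H3 genes hcp-3 and cpar-1. In P37Stop 6 rose and 1 fell, in S441L 3 rose and 2 fell, and in P183L 8 rose and 2 fell. Over all genes tested, 12.7% were called higher and 5.9% lower in P37Stop, 24.2% and 15.8% in S441L and 40.2% each way in P183L. The S441L counts are thus near those shares. The median log2 fold change was 0.98 in P37Stop, 0.08 in S441L and 2.91 in P183L. The htz-1 gene averaged 241 CPM in P37Stop, against 110 in WT batch 2, and 905 CPM in P183L, against 116 in WT batch 1, and rose by 1.16 and 2.91 on the log2 scale.

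Linker histones moved in opposite directions in P183L. While his-24 rose, hil-1 averaged 4.10 CPM in P183L, against 433 CPM in WT batch 1, and fell by 6.77 on the log2 scale (SE 0.06, edgeR adjusted p = 6.42e-16). The hil-1 gene also fell in S441L, by 1.48, to a mean of 151 CPM. The hil-2 gene averaged 760 CPM in P183L, against 75.6 CPM in WT batch 1, and rose by 3.28, and hil-4 and hil-5 rose in all 3 mutants, by 2.22 and 1.60 in P37Stop, 0.89 and 0.63 in S441L and 3.53 and 3.304 in P183L.

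Genes that supply histones to chromatin were read from a list of 14. In P37Stop 5 rose, in S441L 2 rose and 1 fell, and in P183L 11 rose and 1 fell. Beside the 24.2% of all genes called higher and 15.8% called lower in S441L, its counts are low, while those of higher genes in P37Stop and P183L exceed the 12.7% and 40.2% of all genes. The summed level of the list was 1164 to 1456 CPM in P37Stop, against 1254 to 1449 CPM in WT batch 2, which overlap. It was 1039 to 1065 CPM in S441L and 2234 to 2252 CPM in P183L, against 1486 to 1595 CPM in WT batch 1. The cdl-1 gene, for the stem-loop binding protein that processes replication-dependent histone mRNA, rose by 0.90 in P37Stop and by 4.10 in P183L on the log2 scale. The asfl-1 gene, for an H3-H4 chaperone, rose in all 3 mutants, by 2.06 in P37Stop, 1.20 in S441L and 3.41 in P183L. The nap-1 gene, for an H2A-H2B chaperone, fell by 2.03 in P183L and by 0.86 in S441L.

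Genes of DNA replication, which act in S phase, were read from a list of 18. In P37Stop 5 rose, in S441L 2 and in P183L 17, where 12.7%, 24.2% and 40.2% of all genes were called higher. The S441L count is thus below the share over all genes. Their summed level was 382 to 565 CPM in P37Stop, against 300.2 to 424.8 CPM in WT batch 2, which overlap, and 13 of the 18 were not called there. It was 338 to 347 CPM in S441L and 3065 to 3116 CPM in P183L, against 319 to 330.5 CPM in WT batch 1. The replicative helicase gene mcm-7 rose by 1.58 in P37Stop and 4.78 in P183L, and pcn-1 (PCNA) rose by 1.09 in P37Stop and 3.25 in P183L on the log2 scale. In S441L the replication sum lay above WT while the clustered histone sum lay below it, and a link between these sums was not tested.

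Most markers of early embryo or oocyte, material other than an L1 body, rose in each mutant. In S441L they rose where the clustered histone sum fell, and the part of such material in either change was not tested. The paper's methods say that the suspensions were checked for viable embryos left unhatched. All 13 markers of early embryo or oocyte were tested: 10 rose in P37Stop, 13 in S441L and 13 in P183L. Over all genes tested, 12.7% were called higher in P37Stop, 24.2% in S441L and 40.2% in P183L. Their sum was 73.8, 179 and 100.001 CPM in P37Stop, against 55.1, 24.03 and 19.4 CPM in WT batch 2, and 99.4 to 100.1 CPM in S441L and 573 to 583 CPM in P183L, against 38.5 to 40.8 CPM in WT batch 1. The 4 markers of primordial germ cells, which belong to the L1 body, all rose in S441L and in P183L, and 1 of them rose in P37Stop.

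Markers of the larval body moved too. Of 4 intestine markers 3 fell in P37Stop, where they summed to 1208 to 1421 CPM, against 1992 to 2317 CPM in WT batch 2. In P183L 3 of 4 intestine markers fell, with 494 to 497 CPM, against 2631 to 2986 CPM in WT batch 1, and in S441L 1 rose. All 4 muscle markers (2116 to 2194 CPM in P183L, against 16790 to 19110 CPM in WT batch 1) and all 4 neuron markers (289 to 293 CPM, against 717 to 737 CPM) fell in P183L. None of these was called in P37Stop or S441L, but both sums lay below WT there without overlap. In P37Stop the muscle sum was 10579.5 to 12476.4 CPM, against 14228.8 to 16109.6 CPM in WT batch 2. The neuron sum was 807 to 875 CPM, against 936 to 964 CPM. In S441L the sums were 13656.5 to 14103.9 CPM for muscle and 606 to 615 CPM for neurons. Over all genes tested, 5.9% were called lower in P37Stop, 40.2% lower in P183L and 24.2% higher in S441L.

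Of the epidermis markers 2 of 3 tested rose and 1 fell in P183L, with a sum of 529 to 541 CPM, against 250 to 272 CPM in WT batch 1. In S441L none of the 3 tested was called, and the sum was 214 to 225 CPM. In P37Stop 1 of 4 rose, which was dpy-7, and the sum was 197 to 229 CPM, against 173 to 197 CPM in WT batch 2. The dpy-7 promoter drives the reporter of that strain, and whether the reporter bears on the dpy-7 level was not tested. Of the adult yolk genes tested 2 of 3 rose in P37Stop, 2 of 4 rose in S441L, and 1 of 3 rose and 2 fell in P183L. The 1 sperm gene that passed the filter was not called in any mutant. Over all genes tested, 12.7% were called higher in P37Stop, 24.2% in S441L and 40.2% in each direction in P183L. With so few genes a list, the epidermis and yolk counts are not read apart from those shares. The part of these markers in the histone results was not tested.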

How the data were processed

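The deposited table holds estimated counts per gene for 15 libraries of polyA RNA. Per the paper's methods, the authors trimmed paired reads with fastp, aligned them to ce11 with STAR and also used Salmon, dropped duplicate reads (Picard) and counted reads per gene (HTSeq). Which route made the table, the tool versions and whether strand was used are not given in the sources used here. Since 3.70% of values were not whole, counts were rounded for tests. A row with no gene name, holding 42569335, was left out.

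Gene identifiers were matched to an Ensembl annotation of WBcel235 (46857 matched, 54 did not), and symbols shared by several copies were parted by RefSeq names at the same position. Core types were set by annotated coding length (103 codons for H4, 136 for H3, 127 for H2A, 122 or 123 for H2B, 208 for H1) in place of the protein identity first planned, because no protein sequences were used here. Sequences are not printed for the same reason. His- members within 5 kb of another core type and without introns were called clustered.

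Each comparison was a fit of its own 2 groups in edgeR 4.0.16 under R 4.3.3, with TMM scaling, filterByExpr with a minimum count of 10, quasi-likelihood tests and Benjamini-Hochberg adjustment over all genes tested. A gene was called where the adjusted p was under 0.05 and the change exceeded 0.5 on the log2 scale, either way. Differences between allele effects came from 1 fit of all libraries, and their 95% intervals from the total degrees of freedom (15.7) of its quasi-likelihood test. CPM were scaled by TMM over 17180 genes. TPM were computed from the counts and exon lengths. Values in every library were given for genes outside the clusters that passed the filter, for the most abundant clustered gene of each core type, and for up to 3 called genes with the largest change in each direction per mutant. The members and lists were chosen with earlier results of these data known.

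Totals of 35858225 to 47820216 counts set the counting precision, and replicates of 1 group differed by more than counting noise (chi-square per degree of freedom 3.28 to 53.0), so none was taken as a repeat. The replicates came from separate plates. Replicate numbers did not pair the libraries. The fit was tested on simulated data with 200 genes altered by known folds: of the altered genes that could be tested, it recovered 101 of 190 for P37Stop, 177 of 189 for S441L and 181 of 194 for P183L. Alternatives were DESeq2 1.42.0, other scalings and filters, summed rows, a replicate block and leaving out each library. Summing copies with 1 symbol and leaving his-66 out of the H2B and clustered sums were chosen after seeing the data.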

Additional observations from a re-analysis of the deposited data

Results flagged for a closer look

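For 7 genes the effect of one allele over its own WT was set against that of another in a fit of all 15 libraries, and the results listed here passed the test of that difference (edgeR, adjusted p below 0.05). All of them also exceeded 0.5 in size on the log2 scale, as did 30.7% of all genes between P37Stop and S441L, 65% between P37Stop and P183L and 72.2% between P183L and S441L. The P37Stop effect lay above the S441L effect, on the log2 scale, by 2.02 for his-9, 1.82 for his-60, 2.65 for his-66, 2.14 for his-16, 0.54 for his-24, 0.76 for his-71 and 0.73 for his-72. Against P183L, the P37Stop effect was higher by 1.61 for his-9 and 1.87 for his-71, and the difference was -2.18 for his-60, -2.80 for his-24 and -0.52 for his-72.

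The P183L effect lay above the S441L effect by 3.995 for his-60, 2.47 for his-66, 1.84 for his-16, 3.34 for his-24 and 1.25 for his-72, and the difference was -1.11 for his-71. These last 2 alleles share their WT libraries, and P37Stop was run in another experiment with its own WT, so allele and experiment cannot be told apart in the differences that involve P37Stop. With 3 libraries a group, no test for a single outlying library was run.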

How the results depend on the processing

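No called result changed direction under any alternative run. In P37Stop, DESeq2 called 1 histone gene lower and 4 were lower without a filter, and leaving out 1 library gave 1 to 3 lower and 4 to 11 higher, with 5 higher once clustered genes were summed by core type. In S441L, 2 were higher under total-count scaling, 4 without a filter, 2 above 1 TPM and 1 to 3 leaving out 1 library, and 13 were lower above 1 TPM and 9 with core-type sums. In P183L, 5 were lower under total-count scaling and 4 with core-type sums, and 18 were higher above 1 TPM and 5 with core-type sums. P183L against S441L gave 16 higher above 1 TPM and 9 with core-type sums. WT batch 2 against WT batch 1 gave 5 lower in DESeq2, 7 without a filter, 0 with core-type sums, 1 with same-symbol sums and 1 to 8 leaving out 1 library, and 3 higher with core-type sums. Sums leave fewer rows to count, as does the 1 TPM filter. For the other shifts the cause was not tested.

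The log2 ratio of summed levels was 0.88 for clustered genes and 0.38 for the others in P37Stop in TPM, against 0.62 and 0.12 in CPM. In S441L it was -1.08 and -0.33 in TPM, against -1.39 and -0.59 in CPM, and in P183L 1.75 and 1.13 in TPM, against 0.87 and 0.75 in CPM. Total-count scaling shifted the median of all genes to 0.24 in P37Stop, 0.21 in S441L and 0.53 in P183L, and ended the S441L calls of his-24, his-35, his-71, his-73 and his-32, the P183L calls of his-41 and his-14 and that of his-41 in P183L against S441L. It added calls of his-73 (1.05) and his-16 (0.68) in P183L and of his-9 (0.63) in P183L against S441L. DESeq2 ended the calls of his-66 in P37Stop and P183L (adjusted p = 0.0771 and 0.0729), his-73 in S441L (0.0586), his-55 and his-14 in P183L (0.0528 and 0.431) and his-41 in P183L against S441L. That his-41 call also ended without a filter (-0.48) and with core-type sums (-0.49), and the 1 TPM filter ended that of his-35 in S441L (-0.47) and added his-73 in P183L (0.59). With a replicate block, 9 genes were higher in P37Stop and 24 lower in S441L, the his-66 call in P37Stop was lost (log2 fold change 1.35) and his-60 in S441L was gained (-0.52). Same-numbered libraries correlated at -0.11 to 0.10, so the numbers are not taken as pairs.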
